A study of Mus musculus with 2 samples.

Results

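The transcripts described here are those of 10 genes that the transcription factor p53 is known to switch on: Cdkn1a, Mdm2, Ccng1, Bbc3, Bax, Gadd45a, Phlda3, Trp53inp1, Sesn1 and Eda2r. They were chosen by their known regulation, with the levels and the difference of Cdkn1a on these same arrays already known, so the values below describe them and test nothing. They were found by gene symbol among 30920 genes with a symbol, and each of the 10 was represented by 1 probe set of 17 to 28 probes that the annotation marks as unique. RNA of a control mouse and of a mouse fed cuprizone was compared. Cuprizone binds copper and causes the death of oligodendrocytes, and feeding it to mice is a model of myelin loss and repair. Both groups were male C57BL/6 mice, the tissue label was cerebellum, and the treatment text, which is attached to both samples, gives 0.2% cuprizone in the diet for 6 weeks. The title of the cuprizone sample carries an unexplained tag, CPZ-5, and the labels used here state no age. Each group had 1 array of the Affymetrix Mouse Gene 2.0 ST type. With no replicates, the differences below carry neither an error nor a test and speak only for these 2 samples.

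p53 is held at a low level in healthy cells because the ligase Mdm2 marks it for destruction, and damage or stress to a cell releases it from Mdm2. Its targets stop the cell cycle (Cdkn1a, Gadd45a), feed back on p53 itself (Mdm2, Ccng1), restrain growth and survival signals (Sesn1, Phlda3) or open the route to cell death (Bax, Bbc3, Eda2r). Trp53inp1 acts in the stress response of the nucleus and in autophagy. Cdkn1a, which encodes the cyclin-dependent kinase inhibitor p21, is the best known of them and is also induced by signals that do not pass through p53.

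The letters before the annotated starts of these genes are shown first because a p53 binding motif is what the genes are known to share. RefSeq promoters of build GRCm38.p6 matched 9 of the 10 genes with 13 annotated starts, and the 250 bases before each start were searched for the p53 half-site consensus. The consensus has 10 letters, a run of purines, a C, A or T letters, a G and a run of pyrimidines, and reads the same on both strands. An exact match lay before a start of 6 of the 9 genes, against 8.2% of the 27018 genes with a promoter in the table. With at most 1 mismatch allowed, it was 8 of the 9 genes against 67.0% of all genes. The first annotated start of Cdkn1a had a pair of matches 12 bases apart, a pair with a spacer of up to 13 bases that 0.0666% of all genes shared. The match nearer to the start was followed directly by a further 10 letters, from 41 to 32 bases before the start, that differ from the consensus at 1 letter. The window of this start, chr17:29090729-29090978 on the plus strand, is given 5′ to 3′ with the exact matches in capitals.
Cdkn1a: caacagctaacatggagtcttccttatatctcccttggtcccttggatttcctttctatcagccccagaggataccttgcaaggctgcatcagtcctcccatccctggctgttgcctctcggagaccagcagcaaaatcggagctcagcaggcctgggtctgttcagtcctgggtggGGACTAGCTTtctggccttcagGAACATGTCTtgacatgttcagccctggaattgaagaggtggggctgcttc

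The other annotated start of Cdkn1a lies 2790 bases downstream and had no exact match in its window. For the other 5 genes, 40 bases around the match are shown in the same way, on the strand of the gene. They are chr10:117710920-117710959 for Mdm2, chr11:40755447-40755486 for Ccng1, chr7:45467075-45467114 for Bax and chr6:67037423-67037462 for Gadd45a, all on the minus strand. For Sesn1 the stretch is chr10:41887251-41887290 on the plus strand, before the second of its 2 annotated starts.
Mdm2: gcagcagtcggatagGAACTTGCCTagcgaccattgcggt
Ccng1: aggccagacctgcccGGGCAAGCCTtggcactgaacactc
Bax: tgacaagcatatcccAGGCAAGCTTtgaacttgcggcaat
Gadd45a: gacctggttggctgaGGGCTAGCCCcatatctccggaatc
Sesn1: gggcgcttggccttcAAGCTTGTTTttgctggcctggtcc

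**Figure D1:**
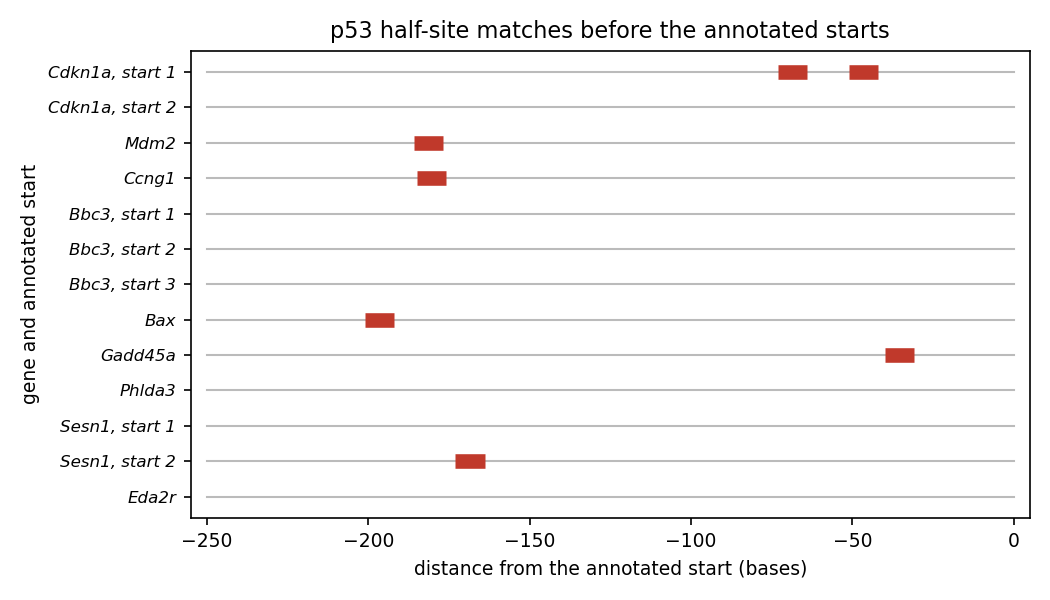
Positions of exact p53 half-site matches (red blocks) in the 250 bases before each annotated start of the genes with a RefSeq promoter; the horizontal axis is the distance from the start in bases and each grey line is 1 start. Cdkn1a has 2 matches before its first start, and Mdm2, Ccng1, Bax, Gadd45a and Sesn1 have 1 each.

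The windows were rich in G and C, with a median of 65.6% against 52.4% over all 32841 promoters, and held a median of 19 CpG pairs against 6. The letters GGGCGG, on either strand, lay before 8 of the 9 genes and before 35.4% of all genes. They also lay before 27 of 35 other known p53 targets with a promoter in the table (77.1%). TATAAA lay before 1 of the 9, Eda2r, and before 14.3% of all genes. TGATGNAA, a motif of the stress factor ATF4, lay before 0 of the 9 and before 3.9% of all genes. None of the 7 exact half-site matches overlapped these other motifs. A match is a description of letters and not of binding, and the genes were chosen as known p53 targets.

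A few facts on the arrays bear on every value. Levels are log2 RMA values, and a difference is cuprizone minus control on that scale. A gene was counted as measured when its higher value reached 4.34, the median of all values, which 16559 genes did. As a bound of background, all but the highest 2.5% of 1420 receptor genes of smell and pheromone sensing, which are hardly transcribed in brain, lay below 4.68 in the control and 4.71 with cuprizone. The cerebellar genes Gabra6 (1.84 and 1.97) and Pcp2 (3.18 and 3.69) lay within background on both arrays. Of 10 cerebellar marker genes 4 lay above it on both, Zic1, Zic2, Calb1 and Neurod1, beside 12651 of all 30920 genes. The tissue label was thus not borne out by Gabra6 and Pcp2, and these values do not settle which tissue was used. The largest differences among the 7 measured markers were those of Car8, lower by at least 0.20, and Cbln1, within background on both arrays. Hybridization and poly-A spike-in probe sets were higher on the cuprizone array by a mean of 0.26 and 0.38. Aligning the arrays on either kind lowers every difference by that amount, so any positive difference smaller than it changes sign. The share of all measured genes past a fold was not computed under these alignments.

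Cdkn1a was higher on the cuprizone array, with the largest difference of the 10 genes. Its level was 4.85 in the control mouse and 5.96 in the cuprizone mouse. The control value lay 0.165 above the bound of background and the cuprizone value 1.25 above it. The difference of 1.11, or 2.15-fold, was the 23rd largest of the 16559 measured genes. Of the 1000 measured genes nearest to it in mean level, 999 had a smaller difference. The difference was 0.85 with the arrays aligned on hybridization spike-ins and 0.73 on poly-A spike-ins, while the median of all measured genes moved to -0.27 and -0.39. The array annotation places the gene on chromosome 17 from 29090979 to 29100722, plus strand, and its probe set has 24 probes.

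**Figure D2:**
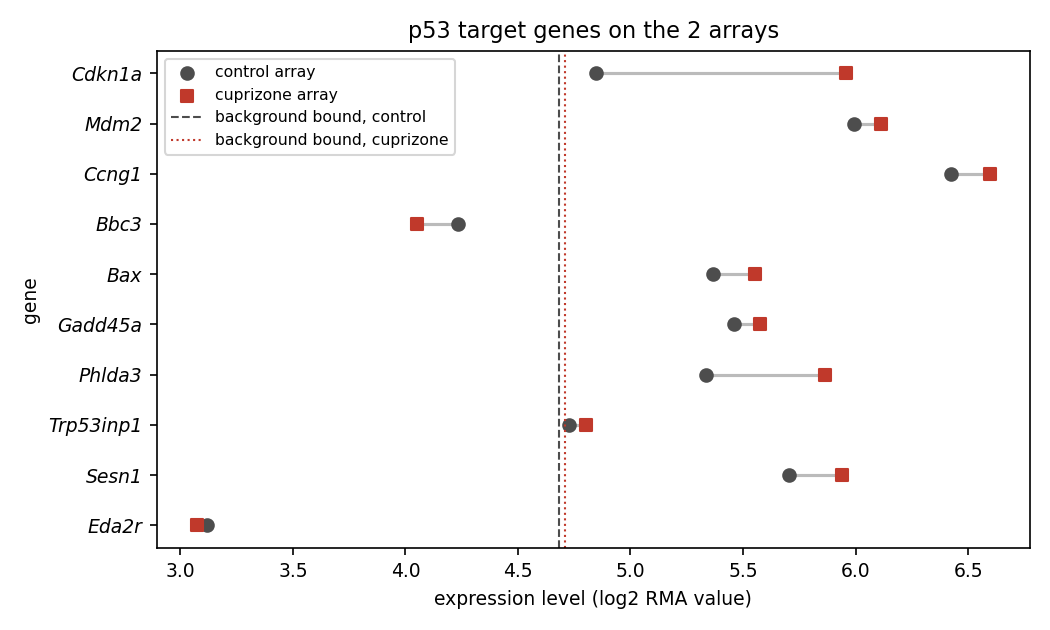
Level of each gene (log2 RMA value, horizontal axis) on the control array (grey circles) and the cuprizone array (red squares), 1 array each, with the bounds of background as dashed and dotted lines. The gap is widest for Cdkn1a, from 4.85 to 5.96, and Bbc3 and Eda2r lie below both bounds.

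The genes that feed back on p53 differed little. Mdm2, the ligase that destroys p53, was at 5.99 in the control and 6.11 with cuprizone. The cuprizone value was the higher by 0.12, or 1.09-fold, and 785 of the 1000 genes nearest in level had a smaller difference. Ccng1 encodes cyclin G1, which brings a phosphatase to Mdm2. It was at 6.43 and 6.60, a difference of 0.17, with 896 of its 1000 nearest genes below it. Among arrest genes, Gadd45a, which binds the proliferating cell nuclear antigen PCNA and kinases of the stress response, was at 5.46 and 5.58. Its difference of 0.12 was 1.09-fold, against 2.15-fold for Cdkn1a.

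Of the genes that restrain growth and survival signals, Phlda3 was the next highest after Cdkn1a. Phlda3 encodes a pleckstrin-homology protein that keeps the kinase Akt from the membrane. Its level was 5.33 in the control and 5.87 with cuprizone, a difference of 0.53 or 1.45-fold, just under 1.5-fold. Of its 1000 nearest genes 981 had a smaller difference, and the difference was 0.28 and 0.16 under hybridization and poly-A alignment. Sesn1, a sestrin that holds back the growth kinase complex mTORC1, was at 5.70 and 5.94. Its difference was 0.24, with 931 of 1000 nearest genes below it. Outside these groups, the stress gene Trp53inp1 was at 4.73 and 4.80, 0.04 and 0.09 above the bound of background.

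The genes of cell death divided by level. Bax, which forms pores in the mitochondrial membrane, was at 5.37 in the control and 5.56 with cuprizone. Its difference was 0.19, with 833 of 1000 nearest genes below it. Bbc3, whose product PUMA frees Bax from its inhibitors, was at 4.23 and 4.05. Eda2r, a receptor of the tumour necrosis factor receptor family, was at 3.12 and 3.07. Both values of each gene lay within background, so no fold is given for them and their levels could not be read from these arrays.

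Counted by fold, 1 of the 8 measured genes, Cdkn1a, was at least 1.5-fold higher, where 1.60% of all measured genes were, or 0.64% with values within background raised to the bound. As deposited it was also the only one at least 2-fold higher, against 0.223% of all measured genes, but it was 1.80-fold and 1.66-fold higher under hybridization and poly-A alignment. Lower by 1.5-fold or more were 0 of the 8, against 1.35% of all measured genes (0.604% with background raised), and 0 were lower by 2-fold or more, against 0.127%. The 8 passed the level filter on both arrays, and Bbc3 and Eda2r on neither. As deposited all 8 measured genes were higher by some amount, where 45.3% of all measured genes were, and their median difference was 0.18 against -0.01 over all measured genes. This direction depends on the scaling: with either spike-in alignment Cdkn1a and Phlda3 alone of the 10 were higher, and the median of the 8 was -0.075 and -0.19. Leaving out Cdkn1a, the differences of the other 7 measured genes ran from 0.07 to 0.53 with a median of 0.17.

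**Figure D3:**
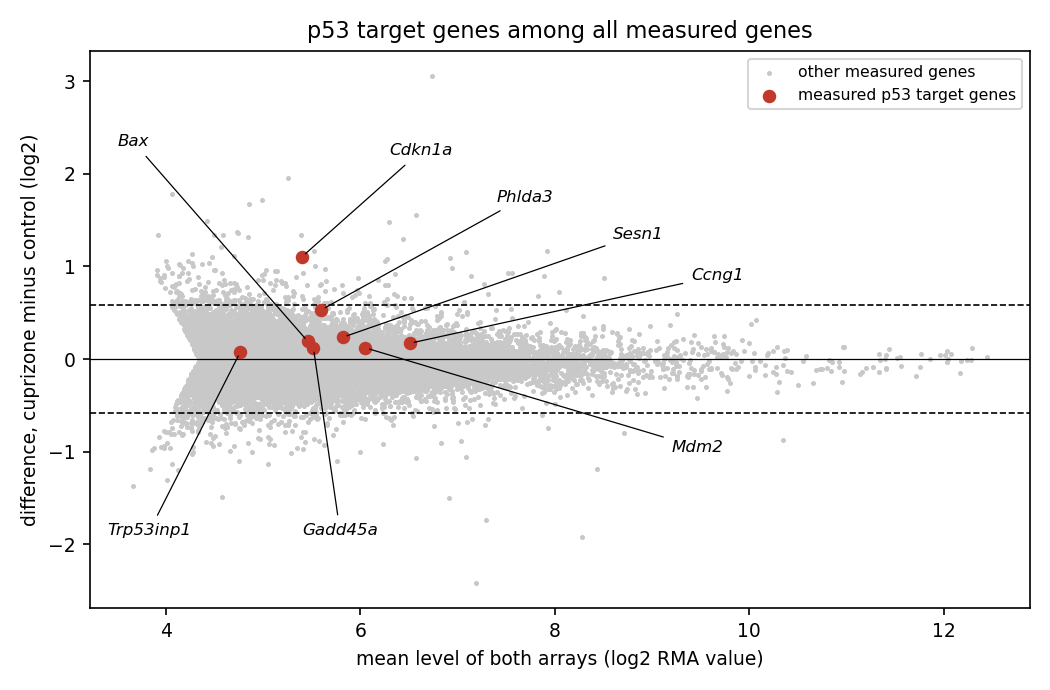
Difference (cuprizone minus control, log2) of the 16559 measured genes against their mean level on both arrays (log2 RMA value); dashed lines mark 1.5-fold. Cdkn1a lies at 1.11, Phlda3 at 0.53 just under the upper line, and the other 6 measured p53 target genes between 0.07 and 0.24.

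As deposited, 0 of the measured genes of p53 itself and the enzymes that control it were past 1.5-fold, where 1.60% of all measured genes were higher and 1.35% lower by as much. Of 15 genes listed, 12 were measured, 3 higher and 9 lower, with a median of -0.12. Under hybridization and poly-A alignment the median was -0.37 and -0.49, against -0.27 and -0.39 over all measured genes. With poly-A alignment 2 genes of the list, Hipk2 and Trp73, were at least 1.5-fold lower. Trp53, the gene of p53, was at 5.71 in the control and 6.01 with cuprizone. Its difference of 0.30, which was 0.04 and -0.08 with hybridization and poly-A alignment, was among the larger ones of the list, beside -0.30 for Hipk2, a kinase that modifies p53. Mdm4, the partner of Mdm2, was at 6.90 and 6.74. Atm, the kinase that signals DNA breaks, was at 5.75 and 5.66, and Ppm1d, a p53-induced phosphatase that switches the response off, at 5.67 and 5.51. Trp73, a relative of p53, was within background on both arrays (4.68 and 4.40). The activity of p53 is set largely by its stability and modification, which transcript levels do not measure.

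Other known p53 targets had smaller differences than Cdkn1a, as did 99.86% of all measured genes. In 3 lists that together hold 45 other targets, 39 were measured, and as deposited 0 differed by 1.5-fold or more, beside 1.60% of all measured genes higher and 1.35% lower. Their median difference was 0.03, with 24 higher and 14 lower, where 45.3% of all measured genes were higher. Of the 13 measured genes of arrest and repair, with a median of 0.03, the largest values were those of Polh, Rrm2b and Ercc5. Polh, a polymerase that copies past ultraviolet damage, differed by at least 0.11, its control value being within background. Rrm2b, a p53-induced subunit of ribonucleotide reductase, differed by 0.35 and Ercc5, a repair nuclease, by -0.32. Among the 11 measured death genes the median was 0.08, and the largest value was 0.36 for Siva1, a binding partner of death receptors; Aen was within background on both arrays and Steap3 on the cuprizone array. Among the 15 measured genes of feedback and metabolism the median was 0.03. Ddit4, an inhibitor of mTORC1, differed by -0.37 and Gls2, a glutaminase, by -0.36, and Dram1 lay within background on both arrays. Under hybridization and poly-A alignment, 2 and 6 of the 39 were at least 1.5-fold lower, the 6 including Aen and Dram1. The median of all measured genes was -0.27 and -0.39 under these alignments.

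The nearest relatives of the 10 genes differed in both directions. Of 15 paralogs 13 were measured, 6 higher and 6 lower, and the median difference was 0.00. Cdkn1b encodes p27, the inhibitor most like p21. It was at 5.28 in the control and 4.73 with cuprizone, the latter 0.02 above the bound of background. The difference was -0.55, so p27 and p21 transcripts differed in opposite directions, under each of the 8 alternatives tried. Of these, the mean of probe sets, the second deposited table and raised background could change neither difference. Trp53inp2, a regulator of autophagy and paralog of Trp53inp1, was at 6.65 and 6.03. Its difference of -0.62 was 1.54-fold and made it the only paralog past 1.5-fold in either direction as deposited. Gadd45g was at 4.78 and 5.11, a difference of 0.32, while Gadd45b differed by 0.14. Among 13 genes of the BCL2 family, to which Bax and Bbc3 belong, 11 were measured with a median of -0.03 and 0 past 1.5-fold as deposited. That median was -0.29 and -0.41 under hybridization and poly-A alignment, against -0.27 and -0.39 over all measured genes. With poly-A alignment 1 gene of the family was at least 1.5-fold lower. The largest differences there were -0.23 for Bcl2l1, a guardian of the mitochondrial membrane, and -0.19 for Bok, a relative of Bax, while Bak1 lay within background on the cuprizone array.

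Genes on which p21 acts had smaller differences than Cdkn1a where they were measured, as did 99.86% of all measured genes. Of 16 cyclins, cyclin-dependent kinases and other partners of p21, 10 were measured with a median of 0.08 and 0 past 1.5-fold as deposited, beside the 1.60% and 1.35% of all measured genes. The median was -0.17 and -0.29 under hybridization and poly-A alignment, with 1 and 2 genes at least 1.5-fold lower. That of all measured genes was -0.27 and -0.39. Ccnd2, cyclin D2, was at 6.15 and 6.61 (a difference of 0.46), and Cdk4, the kinase it binds, at 6.40 and 6.03 (-0.38). Ccna2 was within background on both arrays. A list of 18 replication and mitosis genes that p21 is known to lower had 7 measured members, of which 1 lay above background on both arrays. Its largest values belonged to Cdc20 and Mcm5, both within background on both arrays, and to E2f1, which differed by at least 0.21. A change of proliferation genes was thus not readable at these levels.

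**Figure D4:**
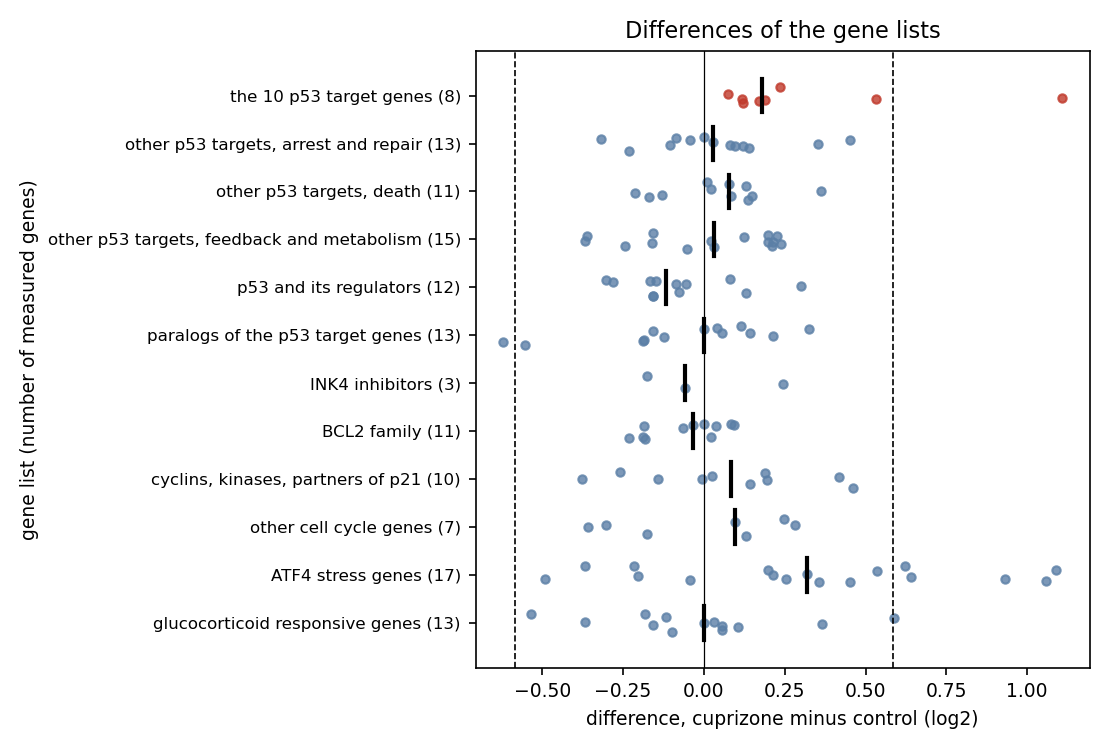
Difference (cuprizone minus control, log2) of each measured gene in 12 gene lists; each point is a gene, black bars are list medians, dashed lines mark 1.5-fold and numbers in parentheses count measured genes. Cdkn1a is the red point at 1.11, and the ATF4 list has the highest median, 0.32.

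The genes whose difference as deposited came closest to that of Cdkn1a, compared over these 2 arrays only, were Slc7a11, Lgals3bp and Atf5, together with Ptprc and Myo1f, whose likeness rests on values within background. Slc7a11, the cystine importer, was at 6.38 and 7.47, and Atf5, a stress transcription factor, at 5.72 and 6.78. Lgals3bp, a secreted binding protein of galectins, was at 5.73 and 6.81. The control values of Ptprc, the pan-leukocyte phosphatase, and of Myo1f, a myosin of immune cells, lay within background, and the differences were at least 1.27-fold and 1.49-fold, so how near they come to the 2.15-fold of Cdkn1a cannot be read. Slc7a11 and Atf5 belong to a list of 18 genes of the ATF4 stress response. Of its 17 measured members 12 were higher and 5 lower as deposited, where 45.3% of all measured genes were higher. By 1.5-fold or more 5 of the 17 were higher and 0 lower, as deposited. Of all measured genes 1.60% were higher and 1.35% lower by as much. The list median was 0.32, and 0.06 and -0.06 under hybridization and poly-A alignment. The 5 genes at least 1.5-fold higher include Atf3, whose control value lay within background, and Mthfd2, within background on both arrays. With such values raised to the bound, 3 of the list were past 1.5-fold higher, beside 106 of the 16559 measured genes. Under hybridization and poly-A alignment 3 and 2 of the list were higher and 2 and 3 lower by 1.5-fold or more. The median of all measured genes was then -0.27 and -0.39. The third largest was Slc7a5, an amino acid transporter (7.05 and 7.98). Sesn2 and Ddit4, which both p53 and ATF4 are known to induce, were at 4.42 and 4.63, within background, and at 5.50 and 5.13.

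Markers of glial cells differed between the same arrays, and in bulk tissue a change in the number of cells and a change in RNA per cell cannot be told apart. Of 10 microglial markers 9 were higher and 3 at least 1.5-fold higher; their mean level was 5.90 in the control and 6.39 with cuprizone, with a difference of 1.55 for the lysosomal protein Cd68. Of 10 astrocyte markers 8 were higher and 3 at least 1.5-fold higher, with mean levels of 7.48 and 8.03, a list median that turns from 0.16 to -0.10 and -0.22 under hybridization and poly-A alignment, and differences of 3.06 for the protease inhibitor Serpina3n and 1.17 for the filament protein Gfap. All 10 markers of mature oligodendrocytes were at least 1.5-fold lower, with mean levels of 7.45 and 6.35. Among them were the myelin genes Mobp (-1.93), Mal (-1.50) and Mbp (-1.05). Of the measured genes as a whole, 1.60% passed this fold upwards and 1.35% downwards, and 45.3% were higher by any amount. Markers of oligodendrocyte precursors had a median difference of 0.02 over 6 measured genes, as deposited, with 4 higher and 2 lower. The 2 lower were Olig1 (-0.20) and Sox10 (-0.11), the largest absolute differences of that list. Neuronal markers had a median of -0.05 over 10, with 0.39 for Rbfox3 and -0.30 for Gad1. Endothelial markers had a median of -0.32 over 9 as deposited, with 8 lower and 1 higher. The largest differences were -0.59 for Cldn5 and -0.45 for Cdh5, and the 1 higher was Vwf, by 0.33. Leukocyte markers had 2 measured genes of 10, Nkg7 and Cd4, both within background. The part of these cells in the difference of Cdkn1a was not tested.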

How the data were processed

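Total RNA of 1 control and 1 cuprizone sample was hybridised to arrays, per the labels. The values the authors deposited are log2 levels of probe sets; the submitters' processing notes name RMA and Affymetrix Power Tools. Versions, the genome build and the release of the annotation were not stated in what was used here. RMA equalises the signal distributions of the arrays, so a shift of total RNA would be removed. The 2 deposited tables, of 41345 probe sets each, differed by no more than 5e-05. Genes were named by the symbol column, with the probe set of the highest mean over both arrays. Differences, ranks and counts were computed with Python 3.11.15, pandas 2.3.3 and numpy 2.4.6, without further centring; counting was tested on simulated data. With 1 array per group no test was run, and the number of arrays limits the precision. The genes and lists were chosen with earlier results of these data known.

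Named genes were all 10 p53 targets; Trp53, Mdm4, Atm and Ppm1d; Gfap, Cd68, Mbp, Gabra6 and Pcp2; the 3 measured genes of each list, or 2 of each marker list, with the largest absolute difference; and the 5 genes, clone names left out, closest to Cdkn1a in difference. A gene that this rule names is not reported here. Gadd45b, Sesn2, Atf3, Mthfd2, Vwf, Zic1, Zic2, Calb1, Neurod1, Plk3, Ccng2, Bcl2l11 and Sgk1 were named after their values were seen. For a value within background, a difference is given as "at least" with that value raised to the bound. Promoter letters are from RefSeq, GRCm38.p6, without the transcribed part. Alternatives were the mean of probe sets, median centring, quantile normalization, lowess (span 0.2, statsmodels 0.14.6), alignment on each kind of spike-in, the other table, raised background, other level filters, a 2-fold threshold and other motif stringency.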

Additional observations from a re-analysis of the deposited data

How the results depend on the processing

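No paired analysis was possible because each group has 1 array. Cdkn1a stayed at least 1.5-fold higher, and the only one of the 10 genes past that fold, under all 8 alternatives. Of these, the mean of probe sets, the other table and raised background could not change the difference of Cdkn1a. The gene has 1 probe set, the 2 tables hold nearly the same values, and both its values lie above background. The difference of Cdkn1a was 0.85 with hybridization and 0.73 with poly-A spike-in scaling and between 1.08 and 1.12 under the other 6. Spike-in scaling moved the medians: that of the 8 measured p53 targets was -0.075 and -0.19, and that of the 39 other targets -0.23 and -0.34. Of the 39, 2 and 6 were at least 1.5-fold lower. The median of all measured genes was -0.27 and -0.39 under the same scaling. With no level filter 2.85% of all genes were at least 1.5-fold higher, and 1.01% with the 75th percentile filter; with values within background raised to the bound, an alternative added after the data were seen, 0.64% were higher and 0.604% lower. A pair of p53 half-sites, a search added after the data were seen, was found for 1 of the 9 genes. Signal over background limits Bbc3, Eda2r, Trp53inp1 and the proliferation genes, and with 1 array per group no spread between mice is known.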

Other observations

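Glucocorticoids are another known input to Cdkn1a, and their part in its difference was not tested. Genes that glucocorticoids induce had a median difference near that of all measured genes. Of 14 listed, 13 were measured, and as deposited 1 was higher by 1.5-fold or more and 0 lower by as much. Of all measured genes 1.60% were higher and 1.35% lower by as much. The median difference of the 13 was 0.00 against -0.01 over all measured genes. Under hybridization and poly-A alignment the median was -0.26 and -0.38, against -0.27 and -0.39 over all measured genes. Of the 13, 0 were then higher and 2 lower by 1.5-fold or more. Nfkbia, the inhibitor of NF-kB, was at 5.35 in the control and 5.94 with cuprizone. Tsc22d3, a classic glucocorticoid target, was at 4.93 and 4.39, the latter within background, and so was at least 0.22 lower on the log2 scale. Among the INK4 inhibitors, which block the cyclin D kinases, 3 of 4 were measured. Cdkn2a was at 4.96 and 4.78, Cdkn2d at 5.12 and 5.06, and Cdkn2b at 4.57, within background, and 4.82.

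Of 45 other p53 targets, 35 had a promoter in the RefSeq table, and 9 of these (25.7%) had an exact p53 half-site in the 250 bases before a start, against 8.2% of all genes and 6 of the 9 genes described above.

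Many differences repeated across genes to 4 decimals. Values were identical on both arrays for 509 of 16559 measured genes (3.07%), Plk3, Ccng2, Bcl2l11 and Sgk1 among them. Among these measured genes the difference of Trp53inp1 was shared by 12 others, that of Gadd45a by 13 and that of Cdkn1a by 0.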
